A study of Mus musculus with 6 samples.

Results

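Cdk5rap1 and 9 other genes for tRNA-modifying enzymes were followed in Th17 cells of the mouse, a T helper type that makes interleukin 17. Cdk5rap1 was chosen by its higher level in Sirt2 knockout libraries, so every value of that difference below is a description and carries no test. The other 9 genes (Cdkal1, Trit1, Trmu, Mto1, Gtpbp3, Nsun3, Pus1, Trmt10c and Trmt61b) were named for their enzymatic role. All 10 were found by symbol among the 24182 genes of the deposited gene table, and Cdk5rap1 had 7 of the 73900 deposited transcripts.

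The study compared 3 libraries of cells in which Sirt2, an NAD-dependent deacetylase gene, had been disrupted by CRISPR/Cas9 (KO, replicates 1 to 3) with 3 control libraries (WT, replicates 1 to 3). Both groups had been activated for 72 hours through CD3 (antibody at 0.5 μg/mL) and CD28 (1 μg/mL), and the labels give no other treatment. The guide, the number of clones, the mouse strain and age, and the origin of the replicates (separate cultures, animals or neither) are not given in the labels, so any p-value here covers just the variation among these 6 libraries, which may be technical. Values are FPKM (fragments per kilobase of RNA, scaled by library size), and the read depth behind them is unknown.

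A transfer RNA becomes fully active only after many of its bases are chemically altered. Mitochondria make their own tRNAs from mitochondrial DNA, and nuclear genes supply the enzymes that modify them. Changes at the wobble base of the anticodon and at the adenosine just after the anticodon, position 37, help the ribosome hold the right codon. CDK5RAP1 works at position 37 after TRIT1 has attached an isopentenyl group there. It then adds a methylthio group, in an iron-sulfur reaction that uses S-adenosylmethionine, to the mitochondrial tRNAs for phenylalanine, tryptophan, tyrosine and one of the serine tRNAs. The name of CDK5RAP1 comes from its separate description as a protein that binds an activator of the kinase CDK5.

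The stretches of these 4 tRNAs that the enzyme reads are shown first, because they are the substrates whose levels are given below. Each line is the 17-base anticodon arm (5 stem bases, a 7-base loop, 5 stem bases), written 5′ to 3′ as DNA from the GENCODE M21 transcripts (GRCm38), with position 37 in capitals.

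mt-Tf, phenylalanine: aagcactgaaAatgctt

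mt-Tw, tryptophan: cgagccttcaAagccct

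mt-Ty, tyrosine: ttagactgtaAatctaa

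mt-Ts1, serine: attggcttgaAaccaat

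In all 4 the anticodon was followed by A, and the loop ended in AAA. The stem bases could pair at 5 of 5 positions in mt-Tf, mt-Ty and mt-Ts1 and at 3 of 5 in mt-Tw. The deposited tables measure the abundance of RNA and say nothing of the modification itself.

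Some facts of the whole series bear on what follows. Sirt2 lay lower in every library labelled KO, at 10.9 to 13.5 FPKM against 19.9 to 21.9 FPKM in the WT libraries. KO replicate 3 stood apart from the other KO libraries: across genes, which are not independent replicates, Pearson's r of log2(FPKM + 1) was 0.990 between it and each WT library, 0.981 and 0.979 between it and the other KO libraries, and 0.992 for KO replicate 1 against KO replicate 2. The 5 T cell markers (Cd3d, Cd3e, Cd3g, Cd4 and Trac) summed to 397 to 418 FPKM among KO and 374 to 386 FPKM among WT libraries, so higher in every KO library, and 4 Th17 markers (Il17a, Il17f, Il23r and Ccr6) to 243 to 399 among KO and 385 to 410 among WT libraries. Of 11 markers of myeloid, B, CD8 and NK cells, 6 were higher in every KO than in every WT library and 0 were lower. Over all tested genes, those at 1 FPKM or more in at least 3 libraries, these shares were 4.28 and 6.88 percent. Only 5 of the 11 markers were tested, and of these 5, 3 were higher and 0 lower in every KO library. Of the 6 higher markers, Cd8a, Itgam and Csf1r stayed under 1 FPKM in every library. Cd68 separated narrowly, with a lowest KO value of 1.711 FPKM and a highest WT value of 1.702 FPKM. The 11 markers summed to 17.7 to 19.6 FPKM among KO libraries and to 8.88 to 9.75 FPKM among WT libraries. In all, 6 of the 11 stayed under 1 FPKM in every library. The B cell markers Cd79a and Ms4a1 and the macrophage marker Adgre1 were listed at 0 in some libraries. Lyz2, a lysozyme gene of myeloid cells, was at 8.31, 9.44 and 4.24 FPKM for KO replicates 1 to 3 and at 1.38, 1.03 and 0.782 FPKM for WT replicates 1 to 3. The part of these markers in the differences below was not tested. In bulk RNA, fewer cells of a type and less RNA per cell cannot be told apart.

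Cdk5rap1 (ENSMUSG00000027487, GRCm38 chromosome 2, 154335380 to 154373010, minus strand) was more than doubled in KO. Replicates 1 to 3 gave gene values of 8.79, 9.08 and 9.74 FPKM for KO and of 3.92, 3.83 and 4.04 FPKM for WT. All KO libraries lay above all WT libraries, a separation that the choice of the gene by this difference favours. The means were 9.20 ± 0.485 FPKM (SD, n = 3) in KO and 3.93 ± 0.102 FPKM in WT, a ratio of 2.34 and a difference of 1.05 on the log2(FPKM + 1) scale. KO replicate 3, the library that stood apart across genes, had the highest Cdk5rap1 value, and leaving out any one of the 6 libraries moved the difference no further than 1.01 to 1.08.

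**Figure D1:**
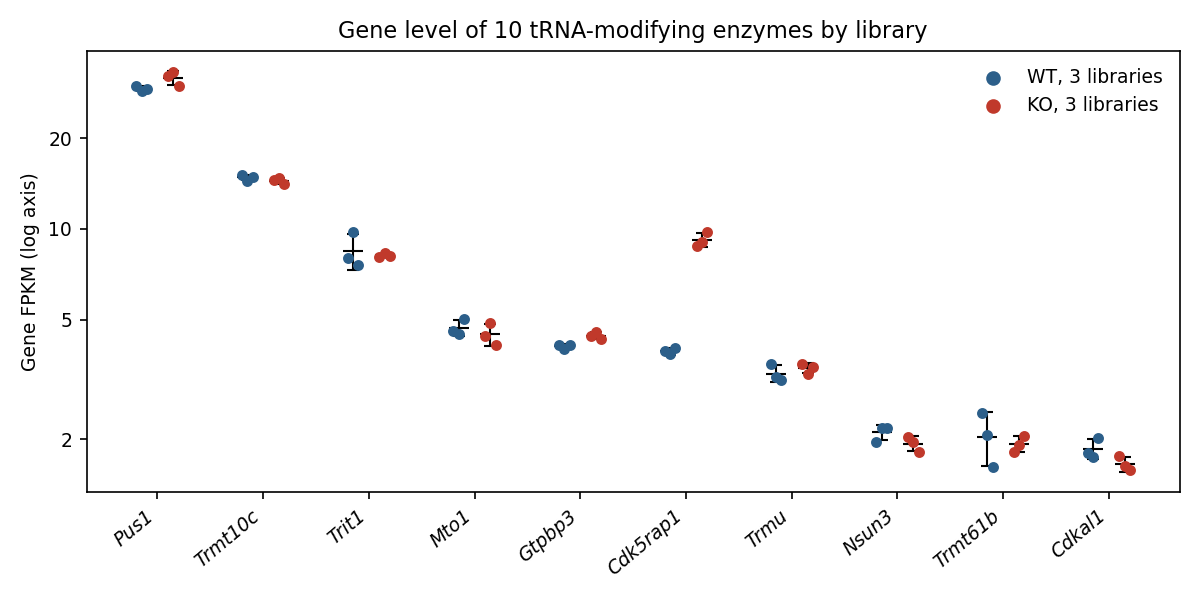
Gene FPKM (log axis) of the 10 genes in the 3 WT (blue) and 3 KO (red) libraries, ordered by the WT mean, with bars at the mean and SD. Cdk5rap1 sits at 3.83 to 4.04 FPKM (WT) and 8.79 to 9.74 FPKM (KO), while each of the other 9 has nearby values in both groups.

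The gene value could be taken apart by transcript. In all 21172 genes above 0 in at least 2 libraries, the deposited gene FPKM equalled the sum of transcript FPKM times transcript length divided by 1 fixed length per gene, within 0.1 percent. For Cdk5rap1 that length was 3434 bases. By this arithmetic, each transcript's deposited FPKM had a fixed part in the 5.27 FPKM by which the gene value was higher in KO. How reads in exons shared by several transcripts were divided is not given, and the parts depend on that division.

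The main transcript, ENSMUST00000028990, has 14 exons and 1970 bases and encodes 588 residues. Replicates 1 to 3 gave 12.5, 13.1 and 15.5 FPKM for KO and 6.62, 6.54 and 6.97 FPKM for WT. The groups did not overlap, and the KO libraries were further apart than for the gene value, with KO replicate 3 the highest. The means were 13.7 ± 1.59 FPKM (KO) and 6.71 ± 0.231 FPKM (WT), a ratio of 2.04. It accounted for 76.0 percent of the difference in the gene value, or 4.01 of the 5.27 FPKM.

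The second contributor was a retained-intron transcript, ENSMUST00000152180, of 4 exons and 936 bases. Replicates 1 to 3 gave 3.70, 2.89 and 2.68 FPKM for KO and 0.0422, 0.0249 and 0.0700 FPKM for WT. In KO it was thus a clear part of the gene's signal and in WT close to 0. Its share of the length-weighted signal was 7.49 to 11.46 percent in the KO libraries and 0.177 to 0.473 percent in the WT libraries. It accounted for 15.7 percent of the difference in the gene value. Among the KO libraries the order of the transcripts was opposite: KO replicate 1 had the most of the retained-intron form and the least of the coding form, and KO replicate 3 the reverse. The coding form was 3.38, 4.54 and 5.79 times the retained-intron form in KO replicates 1 to 3 and at least 99.6 times in every WT library, as ratios of FPKM.

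The retained-intron transcript covers the middle of the gene (154350522 to 154354344). It shares exons 7 to 10 of the coding transcript, begins 134 bases before exon 7 in intron 6, and runs on for 296 bases past exon 10 into intron 10. These introns are 6346 and 2036 bases long, so only their ends are included. Both boundaries are shown because they are what tells the 2 transcripts apart. Shared exon bases are in capitals (30 each), and the 60 flanking bases, intron in one transcript and the neighbouring exon in the other, are in lower case. The sequences are from the GENCODE M21 transcripts (GRCm38, minus strand of chromosome 2).

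Intron 6 into exon 7, retained-intron transcript (chr2:154354181-154354270): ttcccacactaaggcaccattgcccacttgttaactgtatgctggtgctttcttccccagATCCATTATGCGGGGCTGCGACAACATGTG

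Exon 6 joined to exon 7, coding transcript: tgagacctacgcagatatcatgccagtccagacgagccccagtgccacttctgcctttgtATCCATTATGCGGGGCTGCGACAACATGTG

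Exon 10 into intron 10, retained-intron transcript (chr2:154350758-154350847): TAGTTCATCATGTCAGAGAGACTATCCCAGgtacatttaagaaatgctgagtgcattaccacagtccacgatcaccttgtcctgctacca

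Exon 10 joined to exon 11, coding transcript: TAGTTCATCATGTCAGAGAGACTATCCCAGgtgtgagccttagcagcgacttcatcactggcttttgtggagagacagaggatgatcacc

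The retained intron 6 stretch ends in ag before exon 7, and the intron 10 stretch opens with gt after exon 10, the usual letters at intron ends. Reading on from exon 10 in the frame of the coding transcript, the first stop is the seventh codon, 17 bases into the intron. In the coding transcript 419 full codons lie at or before the end of exon 10 and 169 after it. GENCODE annotates the retained-intron transcript as noncoding, and its protein was not measured here.

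**Figure D2:**
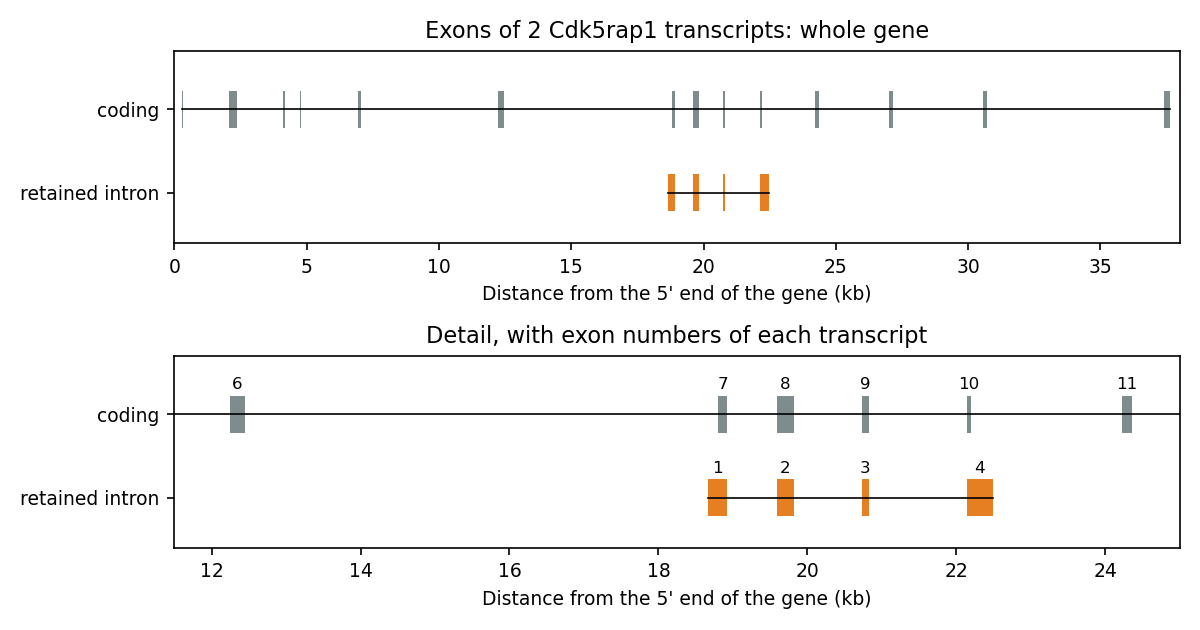
Exons (boxes) of the coding and the retained-intron transcript of Cdk5rap1 against distance in kb from the 5′ end of the gene, over the whole gene (top) and around the shared exons (bottom). The retained-intron transcript has exons matching coding exons 7 to 10, with 134 extra bases at its start and 296 at its end.

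The 5 remaining transcripts were low, at 0 to 0.850 FPKM in any library, and none reached the filter of 1 FPKM in 3 libraries. Their groups overlapped in every case. One of them, the 15-exon coding transcript ENSMUST00000109731, was listed at 0 in KO replicates 1 and 3 and at 0.850 FPKM in KO replicate 2. Together they made up 8.27 percent of the difference in the gene value.

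**Figure D3:**
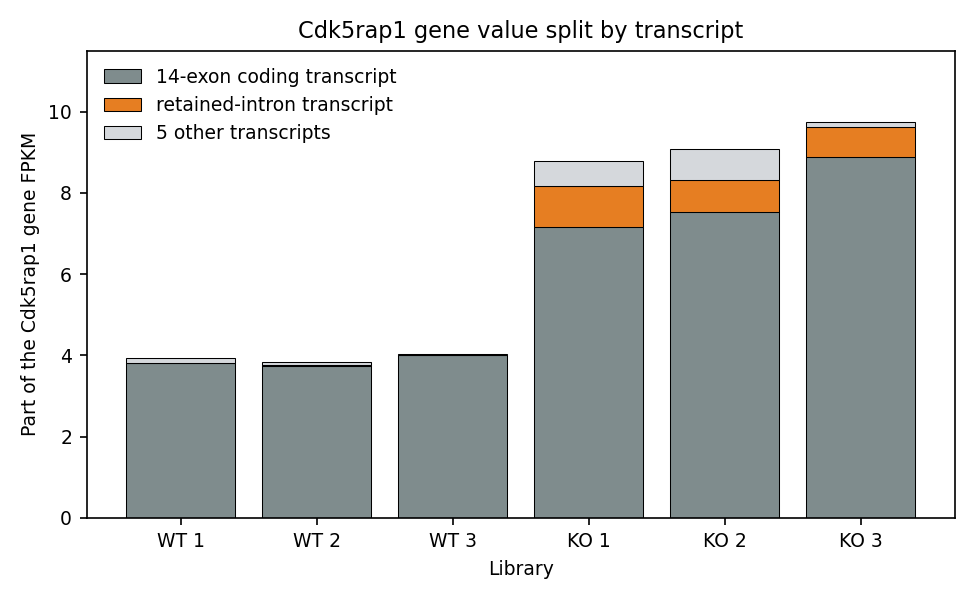
Cdk5rap1 gene FPKM in each library as stacked parts from the 14-exon coding transcript, the retained-intron transcript and the 5 others. The coding part is at least 7.16 in each KO library and at least 3.75 in each WT library, and the retained-intron part is 0.730 to 1.01 in KO and at most 0.0191 in WT.

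The other position-37 enzymes came next. For these and the 6 remaining members, the whole gene table was fitted with limma on log2(FPKM + 1), genes at 1 FPKM or more in at least 3 libraries being tested and adjusted p under 0.05 being called. All 10 members passed that filter, and 0 of the other 9 were called, with 0 at an unadjusted p under 0.05. Over all 10873 tested genes 12 were called, 0.11 percent. The differences of the 9 ran from -0.11 to 0.11 (log2), with a median of -0.04 beside -0.03 over all tested genes.

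Trit1, which attaches the isopentenyl group that CDK5RAP1 then alters, was at 8.08, 8.29 and 8.12 FPKM in KO and 8.01, 9.76 and 7.58 FPKM in WT. Its KO values lay inside the WT range, and the log2 difference was -0.04 (95% interval -0.27 to 0.19, limma adjusted p = 0.947). Cdkal1, the closest relative of CDK5RAP1 in function, methylthiolates a position-37 base of a cytosolic lysine tRNA and not of mitochondrial tRNAs. It was at 1.77, 1.63 and 1.58 FPKM in KO and 1.81, 1.75 and 2.02 FPKM in WT, so the groups just overlapped, with a log2 difference of -0.11 (95% interval -0.33 to 0.11, limma adjusted p = 0.872). Both intervals lie below the 1.05 of Cdk5rap1, but that gene was chosen by its difference. The genes were not tested against each other.

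At the wobble base, MTO1 and GTPBP3 work as a pair that places a taurine-containing group on uridine, and TRMU adds sulfur to the same base. Mto1 was at 4.41, 4.86 and 4.13 FPKM in KO and 4.59, 4.49 and 5.04 FPKM in WT, with overlapping groups and a log2 difference of -0.06 (95% interval -0.27 to 0.14). Gtpbp3 was at 4.40, 4.57 and 4.31 FPKM in KO and 4.13, 3.995 and 4.13 FPKM in WT. It was the only one of the 9 whose groups did not overlap, where 4.28 percent of all tested genes were higher and 6.88 percent lower in every KO than in every WT library. Its difference was small, 0.09 (95% interval -0.08 to 0.27, limma adjusted p = 0.870), and did not pass. The estimates for these partners of one enzyme complex had opposite signs, but both 95% intervals include 0 and neither gene was called. No direction is therefore shown for either.

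Trmu was at 3.57, 3.31 and 3.49 FPKM in KO and 3.56, 3.22 and 3.15 FPKM in WT, a log2 difference of 0.05 (95% interval -0.15 to 0.25). Nsun3 methylates the wobble cytidine of the mitochondrial methionine tRNA, the first step towards formylcytidine. It was at 2.04, 1.96 and 1.82 FPKM in KO and 1.97, 2.18 and 2.19 FPKM in WT, a log2 difference of -0.08 (95% interval -0.29 to 0.13). For both genes the groups overlapped, and limma adjusted p was 0.910 and 0.890.

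The last members act elsewhere on the tRNA. Pus1, which turns uridine into pseudouridine in cytosolic and mitochondrial RNA, was the most abundant member. It was at 32.2, 33.3 and 29.8 FPKM in KO and 29.9, 28.8 and 29.3 FPKM in WT, a log2 difference of 0.11 (95% interval -0.04 to 0.26, limma adjusted p = 0.844). Only KO replicate 3 fell within the WT range. Trmt10c, a methyltransferase for position 9 that is also a subunit of mitochondrial RNase P, was at 14.5, 14.7 and 14.1 FPKM in KO and 15.1, 14.5 and 14.9 FPKM in WT. Its log2 difference was -0.04 (95% interval -0.18 to 0.11), the narrowest interval among the 9.

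Trmt61b is named for the enzyme that methylates the adenosine at position 58 of mitochondrial tRNAs, but the row of that name (chromosome 17, 71557027 to 71598755) is not a coding one. GENCODE M21 types the gene as antisense, and its 3 transcripts in the table are all antisense RNAs. The row was at 1.82, 1.92 and 2.05 FPKM in KO and 2.45, 2.07 and 1.62 FPKM in WT, with the KO range inside the WT range and a log2 difference of -0.05 (95% interval -0.33 to 0.24). Whether counting used strand is not given, and Spdya, which overlaps it on the opposite strand, stayed at or under 0.113 FPKM. These values therefore say little of the enzyme's mRNA.

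By gene FPKM in WT, the order was Pus1 (29.3), Trmt10c (14.8), Trit1 (8.45), Mto1 (4.71), Gtpbp3 (4.08), Cdk5rap1 (3.93), Trmu (3.31), Nsun3 (2.11), Trmt61b (2.05) and Cdkal1 (1.86). Neighbours whose WT ranges overlapped were Gtpbp3 with Cdk5rap1, Nsun3 with Trmt61b, and Trmt61b with Cdkal1. In KO, Cdk5rap1 took the third place, above Trit1. This order depends on the length used for each gene. Cdkal1 was divided by 12799 bases, although its main coding transcript has 2629. On the summed FPKM of protein-coding transcripts, Cdkal1 moved from the tenth to the third place in WT (8.70 ± 0.700 FPKM), just above Mto1 (8.13 ± 0.551 FPKM), with overlapping ranges. On the same scale Cdk5rap1 was at 6.83 ± 0.141 FPKM in WT and 14.3 ± 1.36 FPKM in KO, so in KO it came level with Trmt10c (14.4 ± 0.326 FPKM).

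The transcripts of the other 9 genes gave no called difference. Of their 50 transcripts 19 passed the filter, 0 were called by limma, and 1 had an unadjusted p under 0.05. Over all 19184 tested transcripts 0.0417 percent were called. Most of these transcripts had wider intervals than their genes: the widest 95% interval among the 19, of Gtpbp3 transcript ENSMUST00000127741, ran from -1.31 to 1.57 (log2) and so included a difference as large as the 0.93 of the Cdk5rap1 coding transcript. The 1 was a Pus1 coding transcript, ENSMUST00000086643, at 6.83, 9.48 and 7.11 FPKM in KO and 11.4, 13.0 and 9.42 FPKM in WT (limma adjusted p = 0.873). The most abundant Pus1 transcript, ENSMUST00000170468, named after its values were seen, had overlapping groups, at 29.0, 23.0 and 16.5 FPKM in KO and 19.6, 14.3 and 19.6 FPKM in WT. Among tested transcripts of the 9 genes, 0 were higher and 3 lower in every KO than in every WT library, where 4.71 and 6.36 percent of all tested transcripts were.

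Retained-intron transcripts were looked at in particular because of Cdk5rap1. The other members had 14 of them, in 5 genes, and the highest value in any library was 1.35 FPKM. The 1 that passed the filter, Gtpbp3 transcript ENSMUST00000124349, was at 0.339, 0.923 and 0.503 FPKM in KO and 1.09, 1.04 and 1.35 FPKM in WT. It lay lower in every KO library, with a log2 difference of -0.46 (limma adjusted p = 0.885). It reached 1 FPKM in the WT libraries only, so passing the filter itself favoured lower KO values. The Cdk5rap1 form reached 1 FPKM in the KO libraries only, so the opposite directions of these transcripts are a description.

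None of the tested genes beside Cdk5rap1 on chromosome 2 was called. Within 500 kb of it lay 15 other genes, of which 8 passed the filter. Of these 8, 0 were called, 0 had an unadjusted p under 0.05, and their differences ran from -0.18 to 0.29 (log2). The nearest tested one was Cbfa2t2, a transcriptional corepressor gene 63.5 kb away. It was at 3.002 ± 0.356 FPKM (KO) and 3.51 ± 0.0769 FPKM (WT), lower in every KO library, with a log2 difference of -0.18 (limma adjusted p = 0.842).

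The remaining genes of the pathway were taken from 10 lists by role, with 144 different genes, of which 136 were tested, 6 were below the filter and 2 were not matched by symbol. Limma called 0 of the 136 and 10 had an unadjusted p under 0.05. Over all tested genes, 610 of 10873 had one. In every KO against every WT library 8 of the 136 were higher and 5 lower, where 4.28 and 6.88 percent of all tested genes were. The median over these genes was 0.01 (log2). Without KO replicate 3, limma called 8 of the listed genes, in a fit that called 10.1 percent of all tested genes.

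Of 12 other genes that modify mitochondrial tRNA, 0 passed, and the median was -0.04. Alkbh1, which oxidises the methylated wobble cytidine made by NSUN3, was at 4.54, 4.15 and 4.33 FPKM in KO and 5.68, 4.99 and 4.98 FPKM in WT. It lay lower in every KO library, with a log2 difference of -0.22, and did not pass (limma adjusted p = 0.842). Qtrt2, a subunit of the enzyme that inserts queuine, was at 6.07 ± 0.529 in KO and 7.03 ± 0.465 FPKM in WT, and Trmt5, a guanosine methyltransferase for position 37, at 12.02 ± 0.825 and 12.7 ± 0.670 FPKM.

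Of 7 genes for tRNA processing 0 passed (median -0.02). Hsd17b10, which forms part of mitochondrial RNase P together with TRMT10C, was at 45.7 ± 2.29 FPKM (KO) and 41.2 ± 2.07 FPKM (WT). Angel2 was at 10.7 ± 0.431 and 11.8 ± 0.158 FPKM, and Elac2, which cuts the 3′ ends of tRNA precursors, at 28.5 ± 5.002 and 26.3 ± 1.12 FPKM. Of 23 genes that charge mitochondrial tRNAs with amino acids 0 passed (median -0.02). Among them, the asparagine enzyme Nars2 was at 2.69 ± 0.147 in KO and 3.26 ± 0.180 FPKM in WT, and the tyrosine enzyme Yars2, whose tRNA is a CDK5RAP1 substrate, at 11.2 ± 1.42 and 9.65 ± 0.299 FPKM. Lars2, the leucine enzyme, ranged from 11.6 to 25.8 FPKM over the 6 libraries.

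CDK5RAP1 needs iron-sulfur clusters. Of 16 genes for their assembly and for sulfur supply 0 passed (median 0.07, or 0.04 without KO replicate 1, KO replicate 2 or WT replicate 2). The ferredoxin gene Fdx2 was at 7.58, 2.89 and 2.36 FPKM in KO and 1.61, 1.92 and 2.36 FPKM in WT. The KO libraries lay above the WT libraries, KO replicate 1 by far the most, while KO replicate 3 (2.360) was almost equal to WT replicate 3 (2.359), and the gene did not pass. The cluster scaffold Iscu was at 13.8 ± 1.22 in KO and 12.7 ± 0.527 FPKM in WT, and the glutaredoxin Glrx5 at 13.9 ± 2.79 and 12.05 ± 0.840 FPKM. Of 5 other tested radical S-adenosylmethionine enzymes 0 passed (median -0.01), and Rsad1, Mocs1 and Lias differed by -0.18, 0.09 and 0.02 (log2). Of 41 tested genes for cytosolic tRNA modification 0 passed (median -0.01), with Adat3 at 0.820 ± 0.609 in KO and 1.85 ± 1.08 FPKM in WT, Pus7 at 10.1 ± 0.513 and 10.9 ± 0.166 FPKM, and Tyw3 at 1.73 ± 0.215 and 1.99 ± 0.105 FPKM. Cdk5 and its partners Cdk5rap2 and Cdk5rap3 differed by 0.12, -0.03 and -0.07 (log2), and 0 of these 3 passed.

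The tRNAs that CDK5RAP1 modifies had positive differences, none called. Tryptophan tRNA mt-Tw was at 34.2, 33.2 and 32.4 FPKM in KO and 28.8, 28.7 and 23.4 FPKM in WT, a log2 difference of 0.30 (limma adjusted p = 0.806). Serine tRNA mt-Ts1 was at 187, 197 and 190 FPKM in KO and 177, 158 and 177 FPKM in WT, a log2 difference of 0.17 (limma adjusted p = 0.842). Both were higher in every KO library. So were 2 of the 14 other tested mitochondrial tRNAs, mt-Tl1 among them, and 4.28 percent of all tested genes. Tyrosine tRNA mt-Ty was at 18.3 ± 1.42 in KO and 16.2 ± 1.92 FPKM in WT, and phenylalanine tRNA mt-Tf at 4.46, 3.71 and 1.44 FPKM in KO and 1.86, 1.37 and 1.58 FPKM in WT, where KO replicate 3 fell within the WT range.

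The median difference was 0.24 (log2) for the 4 substrates and 0.23 for the 14 other tested mitochondrial tRNAs, of which 8 were above 0, and 0 were called in either group. With the 4 others below the filter (mt-Td, mt-Th, mt-Ts2 and mt-Tv, all negative) included, the second median was -0.02. The difference between the groups of tRNAs was not tested. Of those 14, the leucine tRNA mt-Tl2 was at 0.828 ± 0.572 in KO and 2.34 ± 0.830 FPKM in WT, the leucine tRNA mt-Tl1 at 161 ± 14.2 and 134 ± 9.14 FPKM, and the alanine tRNA mt-Ta at 52.9 ± 3.34 and 44.9 ± 4.94 FPKM. Mitochondrial tRNAs are cut from long precursors that also hold the mRNAs, and the sources used here do not say how reads of precursors were assigned.

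Of the 13 protein genes that these tRNAs serve, 0 were called and 2 had an unadjusted p under 0.05 by limma. Over all tested genes 610 of 10873 had one. The median of the 13 was 0.15 (log2), or 0.05 without KO replicate 2. mt-Co3, a cytochrome oxidase subunit, was at 1535, 1645 and 1585 FPKM in KO and 1429, 1371 and 1393 FPKM in WT, higher in every KO library by a log2 difference of 0.18 (limma adjusted p = 0.842). mt-Atp6 was at 2136 ± 302 in KO and 1759 ± 85.4 FPKM in WT, and mt-Co2 at 1434 ± 73.6 and 1286 ± 40.4 FPKM, both also higher in every KO library. In all, 3 of the 13 were higher and 0 lower in every KO library, where 4.28 and 6.88 percent of all tested genes were. mt-Co1, named here after its values were seen, differed by 0.00 (log2), with 2739 to 3399 FPKM (KO) and 2905 to 3172 FPKM (WT).

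**Figure D4:**
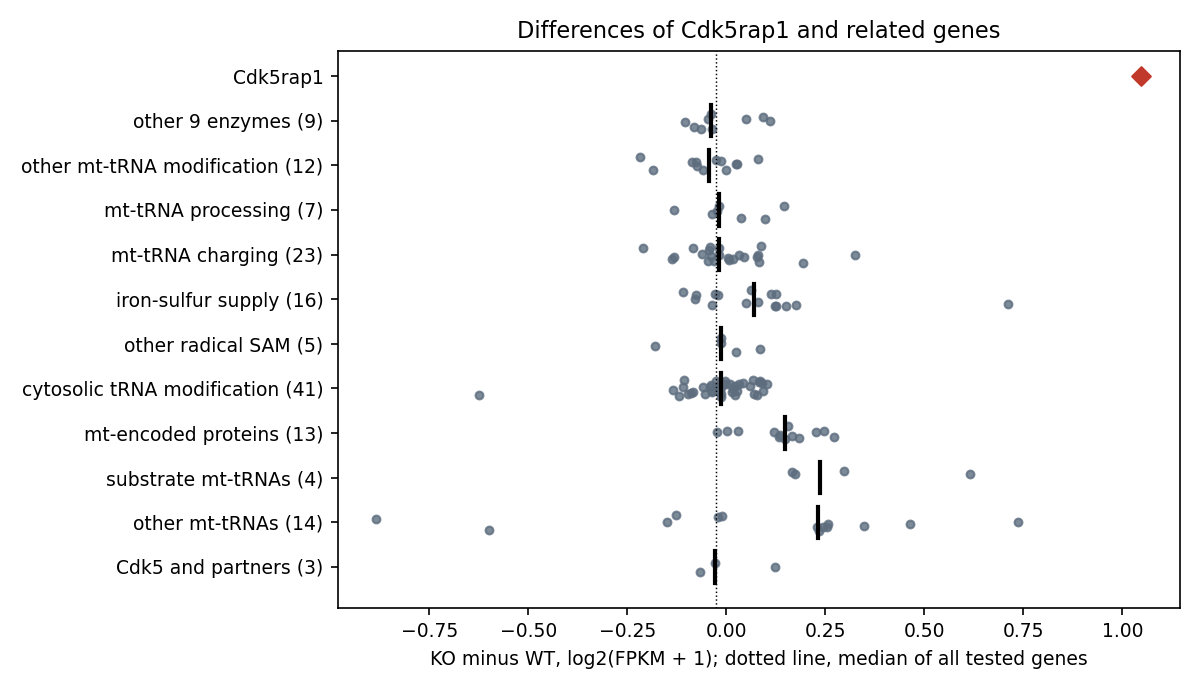
KO minus WT difference on the log2(FPKM + 1) scale for Cdk5rap1 (diamond), the other 9 enzymes and the tested genes of each pathway list (points, number of genes in brackets), with list medians as bars. Cdk5rap1, chosen by its difference, lies at 1.05, and the differences of the listed genes run from -0.88 to 0.74.

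The 5 tested genes whose pattern over the 6 libraries was most like that of Cdk5rap1, by Pearson's r of log2(FPKM + 1), were Srp54b (0.996), H2-M3 (0.996), Slc35g1 (0.996), Gm49980 (0.994) and Dapl1 (0.993). Because Cdk5rap1 separates the groups, genes with tight and separate groups rank high. Srp54b was at 36.6 to 37.2 FPKM (KO) and 26.6 to 27.2 FPKM (WT); it has near-identical copies, between which reads may be divided. H2-M3, a nonclassical MHC class I gene, was at 10.4 to 10.7 (KO) and 8.58 to 8.73 FPKM (WT). Slc35g1 was at 16.3 to 17.6 (KO) and 12.1 to 12.4 FPKM (WT). The unnamed locus Gm49980 was at 14.6 to 15.5 (KO) and 6.26 to 7.29 FPKM (WT), the nearest in size to Cdk5rap1, and Dapl1 was at 7.15 to 8.01 (KO) and 3.89 to 4.09 FPKM (WT). Among the other 9 members r ran from -0.73 (Cdkal1) to 0.88 (Gtpbp3).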

How the data were processed

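The authors deposited FPKM per gene and per transcript for each of the 6 libraries, per the file headers. Tools in the submitters' processing notes, given without version or role, are edgeR, DESeq2, StringTie, HISAT2, FastQC and cutadapt. The notes name the build mm9, but 73240 of 73430 transcripts found in GENCODE M21 had its GRCm38 coordinates. Depth is unknown because no counts were used. KO and WT were compared across all genes (10873 tested) and all transcripts (19184 tested) by limma 3.58.1 (R 4.3.3) after log2(FPKM + 1). The variance prior followed mean expression, and p-values were adjusted by Benjamini-Hochberg over the whole table. Features at 1 FPKM or more in at least 3 libraries were tested. Differences on this scale understate the change of low genes. The fit was tested on simulated data. The members and lists were chosen with earlier results of these data known. Besides the members, each list's called genes and its 3 members of smallest unadjusted p are named, with the 5 genes most like Cdk5rap1 and the tested neighbours within 100 kb. mt-Co1 and a second Pus1 transcript were named after their values were seen. Some marker and neighbouring genes are not reported here. Alternatives were median scaling, other filters, a pseudocount of 0.1, no trend, adjusted p under 0.01, the replicate block and leaving out each library. Figures were drawn with matplotlib 3.10.9.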

Additional observations from a re-analysis of the deposited data

How the results depend on the processing

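The Cdk5rap1 gene difference was 1.01 to 1.21 (log2) over 12 alternatives. Other filters, no trend and the replicate block could not move it, because it is the difference of the group means. The highest value, 1.206, came at a pseudocount of 0.1, which by its construction enlarges differences of low values. The retained-intron transcript went from 1.96 to 4.45 at that pseudocount for the same reason, and was 1.95 to 1.99 in the other alternatives where it passed the filter. Without any one KO library it reached 1 FPKM in only 2 libraries and was not fitted. The coding transcript was 0.84 to 1.01. Of the other 9 members 0 were called in any of 13 alternatives, as were 0 of their transcripts and 0 neighbours. Except without KO replicate 3, each alternative called at most 0.12 percent of all tested genes, so 0 among few genes says little. Differences near 0 changed sign for Trit1 (1.12e-04 after median scaling, and -0.104 to 0.0597 without one library), Trmt10c (0.00265 after median scaling) and Trmt61b (-0.15 to 0.0467 without one library). List medians within 0.05 of 0 also changed sign or size in some alternatives, and the median of the other mitochondrial tRNAs went from 0.23 to -0.02 with no filter. Pathway genes were called in 1 alternative: without KO replicate 3, 8 passed (Glrx5, Qtrt1, Yars2, mt-Nd3, mt-Te, mt-Tf and mt-Tt higher, mt-Tl2 lower). That fit called 10.1 percent of all tested genes. With each other library left out 0 pathway genes passed. Those fits called only 0 to 0.0558 percent of all tested genes, so 0 was likely beforehand. Deviations from the group means correlated across genes at 0.0067, -0.017 and -0.0756 between same-numbered KO and WT libraries. Between differently numbered libraries they correlated at -0.1074 to 0.1199. Values of this size do not show pairing by number and cannot exclude it. With the replicate block 0 of the 9 members and 0 pathway genes were called. Without read counts, the precision of low values such as the WT retained-intron level is unknown.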
